A study of Homo sapiens with 16 samples.

Results

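The glucocorticoid receptor, its FK506-binding co-chaperones and its classical target genes were followed in myeloma cells that had become resistant to venetoclax, a drug that blocks the anti-apoptotic protein BCL2. The 8 genes were NR3C1 (the receptor), FKBP5 and FKBP4 (co-chaperones of its HSP90 complex), and the targets TSC22D3, PER1, KLF9, SGK1 and DUSP1. They were chosen by symbol for their place in the pathway, with earlier results of these data known. Dexamethasone, a synthetic glucocorticoid, is a standard partner drug in myeloma. All 8 were among the 12592 genes listed for KMS12PE and the 14560 listed for KMS27, and all 8 passed the filter on low counts in both lines. KMS12PE and KMS27 are human myeloma cell lines that carry t(11;14). In each line, RNA of 3 resistant clones was set against RNA of the parental population, and each population gave 2 of the 16 libraries. The clones (A, C and D of KMS12PE, and B5, C1 and C5 of KMS27) were each grown from a single cell that had persisted under high-dose venetoclax and were maintained at 100 nM. For the parental populations the labels give no dose. Drug, selection and single-cell origin therefore cannot be told apart in a clone's difference from its parental population. All cells were grown in RPMI-1640 with fetal bovine serum, and no glucocorticoid treatment is named in the labels, so the values describe the pathway without a stated added hormone.

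The unliganded receptor sits in the cytoplasm in a complex with HSP90. FKBP5 (FKBP51) in that complex lowers its affinity for hormone, while FKBP4 (FKBP52), which can take its place, favours movement to the nucleus. The hormone-bound receptor enters the nucleus, binds glucocorticoid response elements and induces genes that include its own brake, FKBP5. In lymphoid and plasma cells the same receptor drives cell death, which underlies the use of dexamethasone in myeloma.

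Levels are given as CPM, read counts scaled to the size of the library within each line, and a call means an adjusted p under 0.05 over all genes of the line by edgeR's quasi-likelihood test. The labels do not say whether 2 libraries of a population came from separate cultures, so these p-values measure the spread between libraries, which may be technical. The clone comparisons of a line share its 2 parental libraries. KMS12PE libraries held 5831289 to 13674426 counts, and KMS27 libraries held 20257318 to 52615971. The 10 plasma cell markers examined were all listed in both lines. In KMS27 their summed level was 6460 to 10400 CPM in clone libraries and 11000 to 11900 CPM in parental libraries; in KMS12PE the ranges overlapped (3680 to 4470 CPM in clones, 3890 to 4410 CPM in parental cells). Of 4 T cell markers, CD3E and TRAC were listed in KMS27 (sum 4.84 to 13.2 CPM in clones, 9.49 to 10.0 CPM in parental cells) and none in KMS12PE. Of 4 stromal markers VIM alone was listed, and only in KMS27, where it had 499 to 641 CPM in clone libraries and 394 to 405 CPM in parental libraries; its part in the KMS27 results was not tested. No myeloid or erythroid marker was listed in either line. In bulk RNA, fewer cells expressing a gene and less RNA per cell cannot be told apart.

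In KMS12PE the receptor gene differed between clones. NR3C1 had 126 and 117 CPM in clone A, 196 and 193 CPM in clone C and 115 and 108 CPM in clone D, against 149 and 171 CPM in parental cells. The clone C libraries lay above both parental libraries, and the libraries of clones A and D lay below both. NR3C1 fell in clone D, with a log2 fold change of -0.52 ± 0.10 (SE) and an adjusted p of 0.0153, and it was the only one of the 8 genes called there, where 5.16% of all genes were called. Clone A had a log2 fold change of -0.40 (adjusted p = 0.176) and clone C one of 0.28 (adjusted p = 0.257). In these clones 0 of the 8 genes were called, where 0.448% and 1.78% of all genes were, with 2 and 1 at an unadjusted p under 0.05 and 0 by DESeq2. The joint test among the 3 clones called NR3C1 alone of the 8 genes (adjusted p = 0.00132, with 8.22% of all genes called). Clone C stood above clone A by 0.68 on the log2 scale (adjusted p = 0.00725, 1.32% of all genes called), and clone D stood below clone C by 0.81 (log2 fold change -0.81, adjusted p = 0.000932, 8.58% of all genes called). Clones D and A, neighbours in the order of levels, were not separated (adjusted p = 0.54).

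With the replicate number as a block, all 3 clones passed for NR3C1 at the same log2 fold changes, with adjusted p-values of 0.00376 for clone A, 0.026 for clone C and 6.32e-05 for clone D. Without the block, the call in clone D was lost without clone D replicate 3 (adjusted p = 0.0832), without parental replicate 3 (0.0985) and in a fit of the clone D and parental libraries alone (0.0615), while the joint test among clones held without each of the 8 libraries in turn (0.00217 to 0.0125). The mean of the 3 clones, 143 ± 45 CPM (SD, n = 3 clone means) against 159.8 ± 16 CPM in parental cells (SD, n = 2 libraries), gave a log2 fold change of -0.21 (95% interval -0.39 to -0.04, adjusted p = 0.338, and 0.0524 with the block).

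In KMS27 the receptor gene was called in no clone. NR3C1 had 92.9 and 103 CPM in clone B5, 128 and 132 CPM in clone C1 and 136 and 115 CPM in clone C5, against 115 and 114 CPM in parental cells. The B5 libraries were the lowest of the line and the C1 libraries lay above both parental ones. The adjusted p-values were 0.209 for B5, 0.297 for C1 and 0.502 for C5, and the mean of the 3 clones differed from parental cells by 0.03 on the log2 scale, with a 95% interval of -0.19 to 0.24. The joint test among the clones did not pass (adjusted p = 0.0775), although it did with DESeq2 (0.0368) and without B5 replicate 2 (0.0283). The response of NR3C1 was not shown to differ between the lines (KMS12PE minus KMS27, -0.23, adjusted p = 0.252).

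**Figure D1:**
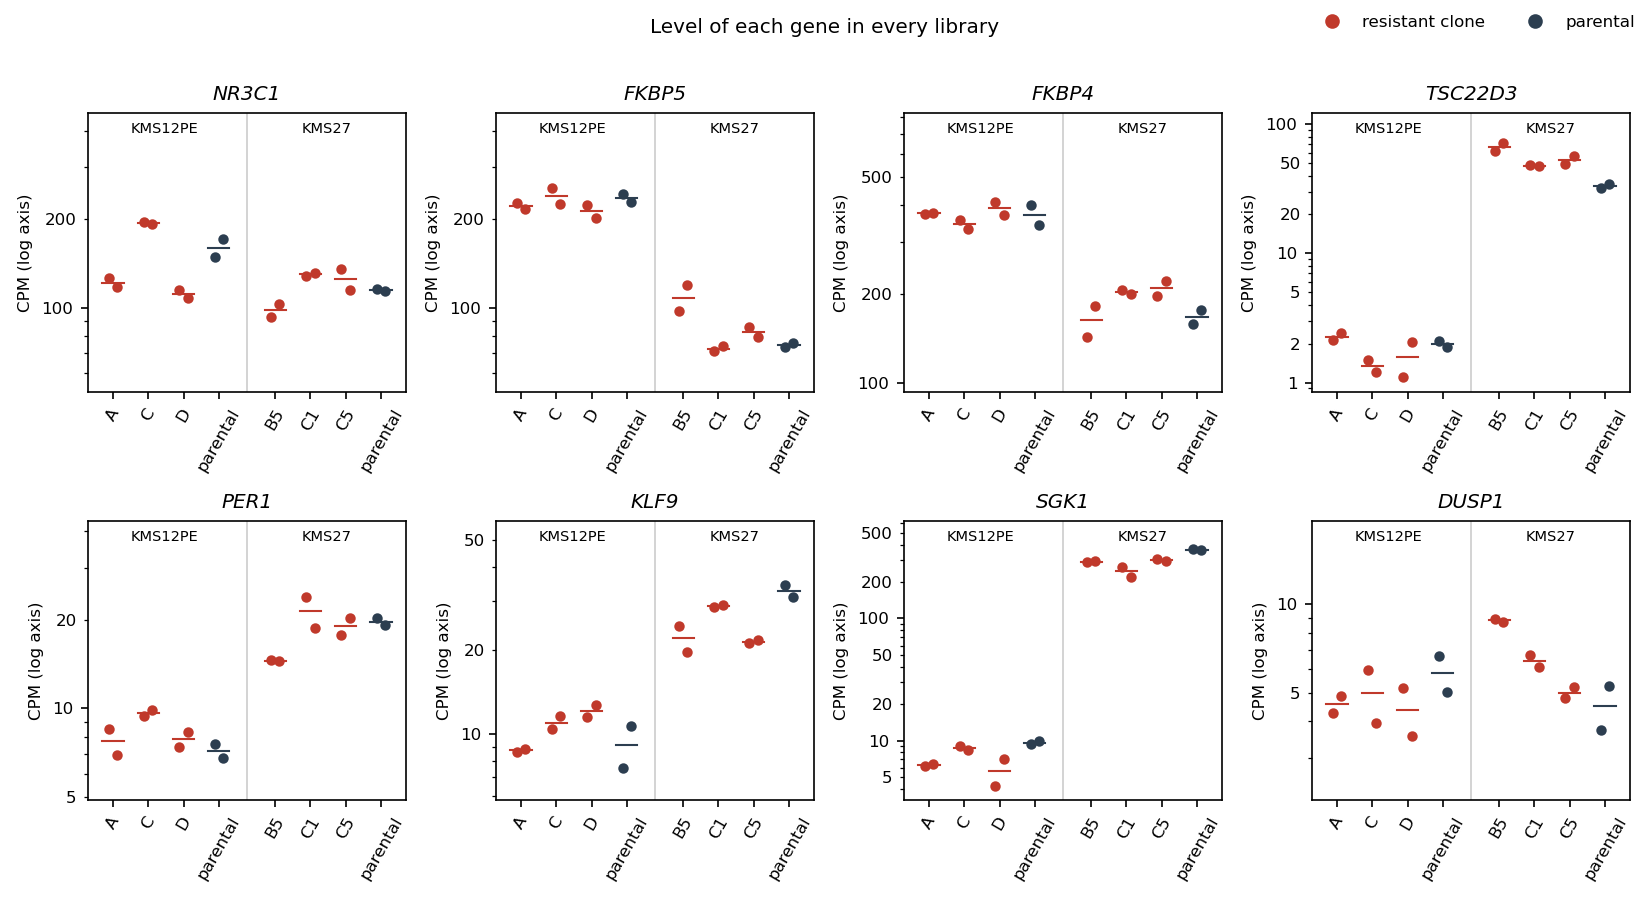
CPM (log axis) of the 8 genes in every library, with clones left of the parental population in each line, 1 point per library and a bar at the population mean. NR3C1 was split among the KMS12PE clones, and SGK1 and TSC22D3 sat far lower in all 8 KMS12PE libraries than in all 8 KMS27 libraries.

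Over the mean of the clones, 0 of the 8 genes were called in KMS12PE, where 1.47% of all genes were called. At an unadjusted p under 0.05 there were 2 (NR3C1 and SGK1), and DESeq2 called 0. The median log2 fold change of the 8 genes was -0.14, against -0.003 over all genes tested. In KMS27, 3 of the 8 genes were called (TSC22D3 higher, KLF9 and SGK1 lower), where 25.8% of all genes were called, 13.0% higher and 12.7% lower. A count of 3 among 8 is near that share, and the median of the 8 genes was 0.11, against -0.01 over all genes. The count fell without either KMS27 parental library and rose without clone B5 replicate 1, and the number of all genes called moved the same way.

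**Figure D2:**
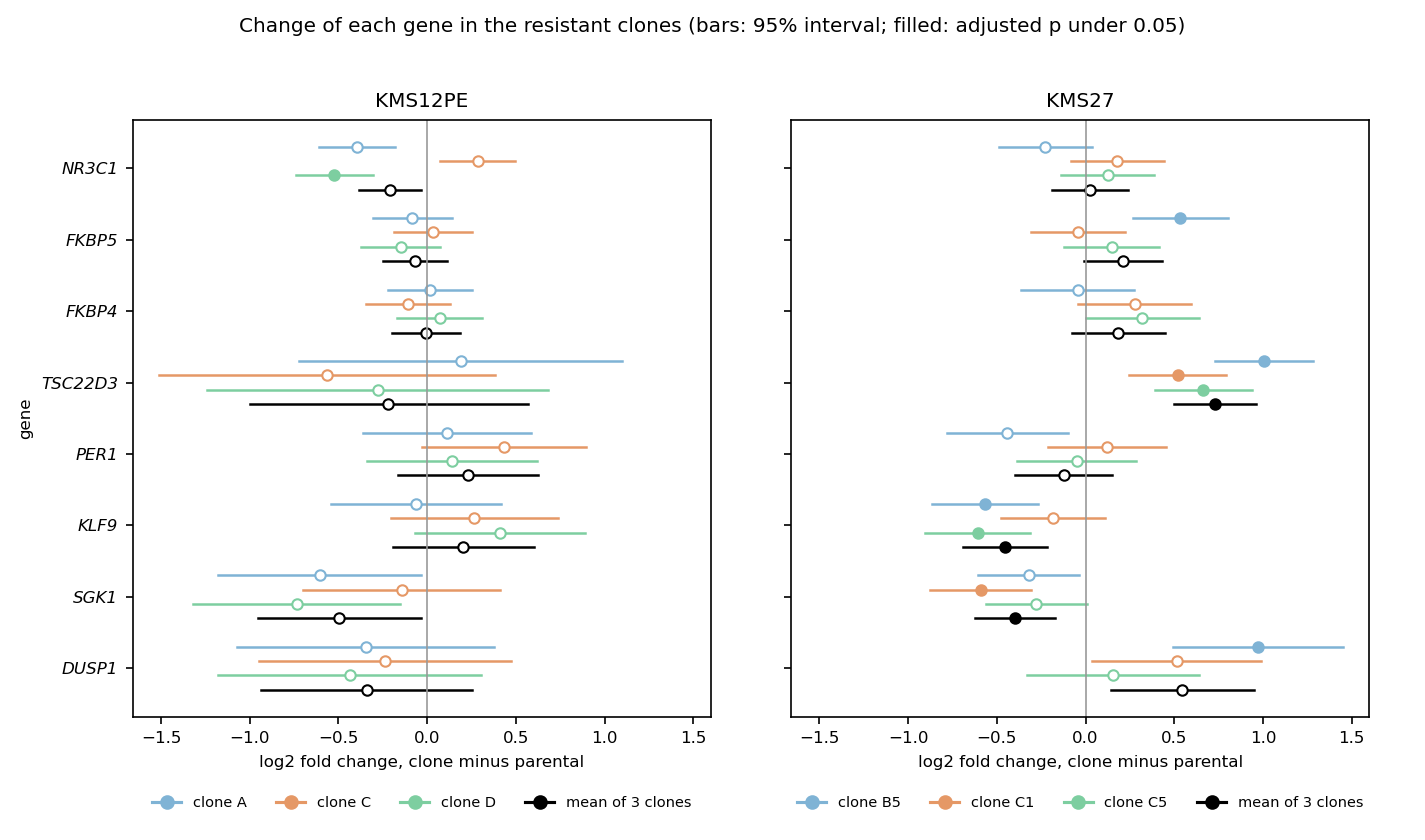
Log2 fold change (x axis) of each of the 8 genes against parental cells, for each clone and for the mean of the 3 clones, with 95% intervals and filled points for an adjusted p under 0.05. In KMS12PE the single filled point is NR3C1 in clone D, and in KMS27 the filled points are TSC22D3 (0.52 to 1.00), FKBP5 and DUSP1 in clone B5, KLF9 and SGK1.

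Of the co-chaperones, FKBP5 moved in 1 clone. FKBP5 had 97.6 and 119 CPM in KMS27 clone B5, 71.3 and 73.9 CPM in clone C1 and 86.1 and 79.5 CPM in clone C5, against 73.8 and 75.8 CPM in parental cells. Both B5 libraries lay above every other library of the line. FKBP5 rose in B5 by 0.53 ± 0.12 (SE, log2, adjusted p = 0.0134), 1 of 4 of the 8 genes called in that clone against 21.0% of all genes. It differed among the clones (adjusted p = 0.0273, the only one of the 8 genes called, 13.7% of all genes called), with C1 below B5 by 0.58 (log2 fold change -0.58, adjusted p = 0.0168, 11.3% of all genes called). The B5 call was lost without parental replicate 1 (adjusted p = 0.0956) or 2 (0.0740) and with B5 and parental libraries alone (0.0803). The call among clones was lost without either parental library (0.0583 each), either C1 library (0.136 and 0.102 without replicates 1 and 2) or either C5 library (0.0813 and 0.0905). TSC22D3 (0.0525) and KLF9 (0.0841) did not pass among the clones, but did without B5 replicate 1 (0.00959 and 0.00879), and without B5 replicate 2 KLF9 (0.0285) and FKBP4 (0.0169) passed. Over the mean of the clones FKBP5 did not pass (0.21, adjusted p = 0.145), but did without B5 replicate 1 (0.0167). In the 10 Mb on either side of FKBP5 on chromosome 6, 289 other genes had a median log2 fold change of 0.31 in B5. Their median stood at 0.28 for C1, beside an FKBP5 value of -0.04, and at 0.37 for C5, beside 0.15. The part of this shift in the FKBP5 values was not tested.

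FKBP4 was called in no clone with all libraries. It had 143 and 183 CPM in B5, 207 and 200.1 CPM in C1 and 197 and 222 CPM in C5, against 159 and 177 CPM in KMS27 parental cells, and the mean of the clones differed by 0.18 (log2, adjusted p = 0.279). B5 replicate 1 was the lowest of the line in CPM. Both B5 libraries held 3437 FKBP4 counts, so their CPM differed through library total and TMM scaling factor alone (factors 1.089 and 0.9285 for replicates 1 and 2). Without B5 replicate 1 FKBP4 passed for the mean (0.0436), for C1 (0.0485) and for C5 (0.0366), and without B5 replicate 2 for C5 (0.036). In KMS12PE the level of FKBP4 ran from 333 to 411 CPM in clones, against 343 and 402 CPM in parental cells, and that of FKBP5 from 202 to 256 CPM in clones, against 228 and 243 CPM in parental cells. The clone and parental ranges overlapped for both genes. The 95% intervals of the mean log2 fold change in KMS12PE were -0.25 to 0.11 for FKBP5 and -0.20 to 0.19 for FKBP4. Exons of FKBP4 overlap those of 3 opposite-strand genes by 2.2% to 5.5% of their length, and without a stated strand their reads cannot be told apart.

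Because the co-chaperones replace each other on the receptor complex, the ratio of FKBP5 to FKBP4 CPM was set side by side between libraries, without a test. The ratio was 0.683 and 0.652 in clone B5, 0.345 and 0.370 in C1 and 0.437 and 0.359 in C5, against 0.465 and 0.429 in KMS27 parental cells. B5 was the one KMS27 clone whose ratios lay above both parental ratios. In KMS12PE the ratio was 0.606 and 0.575 in clone A, 0.714 and 0.678 in clone C and 0.544 and 0.546 in clone D, against 0.605 and 0.665 in parental cells. Clone C, with the highest NR3C1, also had the highest ratios of that line, and clone D the lowest of both.

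**Figure D3:**
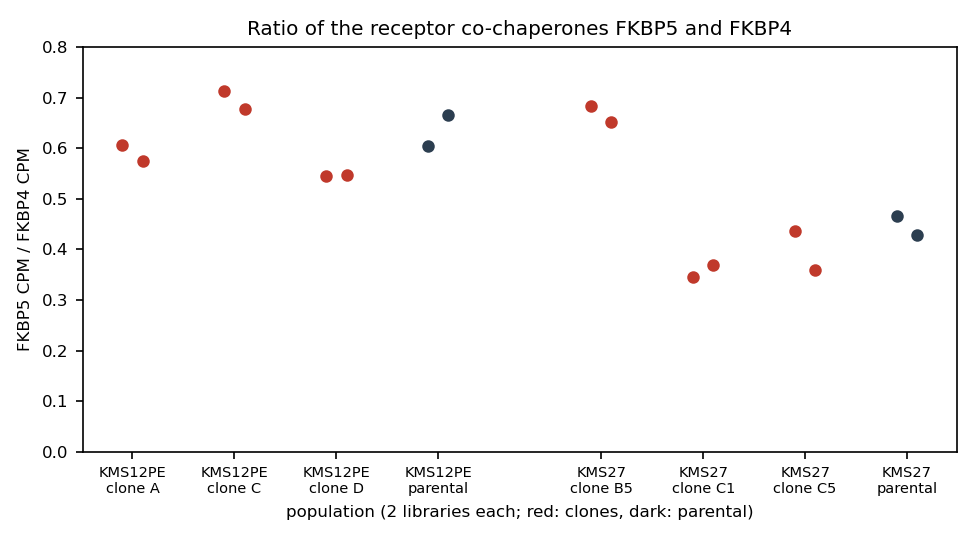
Ratio of FKBP5 CPM to FKBP4 CPM in each library (y axis), by line and population, with clones left of parental cells and 1 point per library. The KMS27 clone B5 points (0.683 and 0.652) sit among the KMS12PE values, and all other KMS27 points lie at 0.465 or lower.

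RefSeq promoter windows of 300 bases around each start (GRCh38.p14) were held for 7 of the 8 genes, 19 windows in all. The full response element, AGAACA and TGTTCT parted by any 3 bases and searched on both strands, was in 0 of the 19 windows and in 1 of 35116 promoters in all (0.00285%). The hexamer AGAACA, which lies within the full element, was in 2 of the 19 (14.8% of all promoters), and the cyclic AMP response element TGACGTCA in 1 of the 19 (1.85% of all). TSC22D3 and KLF9, also called in KMS27 clones, had no match in their windows. The 3 stretches printed are all the matches found in the 19 windows. Each is read on the gene's strand, which is the minus strand in all 3, and capitals mark the searched letters. They start 1 base into the FKBP5 transcript, 6 bases into the SGK1 transcript and 125 bases before the DUSP1 start. A match is a description of letters and not a site of binding.
FKBP5 chr6:35728578-35728630: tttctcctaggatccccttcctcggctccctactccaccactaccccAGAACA
SGK1 chr6:134177851-134177903: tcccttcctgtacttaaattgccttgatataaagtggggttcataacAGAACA
DUSP1 chr5:172771266-172771367: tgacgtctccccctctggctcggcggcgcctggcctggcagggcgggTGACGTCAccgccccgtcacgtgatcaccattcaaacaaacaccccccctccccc

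TSC22D3, which encodes the anti-inflammatory leucine zipper protein GILZ and is among the most used readouts of receptor activity, rose in KMS27. It had 62.4 and 71.8 CPM in clone B5, 48.3 and 47.5 CPM in clone C1 and 48.9 and 57.2 CPM in clone C5, against 32.2 and 34.6 CPM in parental cells. All 6 clone libraries lay above both parental libraries. The mean of the clones was 56.0 ± 9.9 CPM (SD, n = 3 clone means) against 33.4 ± 1.7 CPM in parental cells (SD, n = 2 libraries), a log2 fold change of 0.73 ± 0.10 (SE, adjusted p = 0.0012). This call held without each of the 8 KMS27 libraries in turn (adjusted p = 2.79e-05 to 0.0271). The single clones gave 1.00 for B5 (adjusted p = 0.000739), 0.52 for C1 (0.0169) and 0.66 for C5 (0.00585), and C1 stood below B5 (log2 fold change -0.49, adjusted p = 0.0333). The B5 call held in each alternative. The C1 call was lost without parental replicate 1 (0.130), parental replicate 2 (0.0631), C1 replicate 1 (0.109) or C1 replicate 2 (0.0735), and the C5 call without parental replicate 1 (0.0617) or C5 replicate 2 (0.0704).

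TSC22D3 lies on chromosome X (chrX:107713221-107777342, GENCODE v29 on GRCh38, minus strand), and genes of that chromosome shifted upward as a whole in the KMS27 clones. The 422 other chromosome X genes placed had a median log2 fold change of 0.57 over the mean of the clones, and 249 of them (59.0%) were called higher and 10 lower. In B5, C1 and C5 the chromosome median was 0.55, 0.59 and 0.53, and the TSC22D3 value was 1.00, 0.52 and 0.66. The 95% intervals of TSC22D3 were 0.728 to 1.28 in B5, 0.245 to 0.792 in C1 and 0.39 to 0.939 in C5. These intervals do not cover the spread of chromosome X genes around their median, so they cannot set TSC22D3 apart from the shift. The 54 genes within 10 Mb had a median of 0.42 over the mean of the clones, 0.58 in B5, 0.47 in C1 and 0.42 in C5. The part of this shift in the TSC22D3 change was not tested. In KMS12PE the gene had 1.10 to 2.40 CPM in clones, against 1.89 and 2.11 CPM in parental cells, from 7 to 31 counts per library, and its interval of -1.0 to 0.57 (log2) is wide at this depth.

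**Figure D4:**
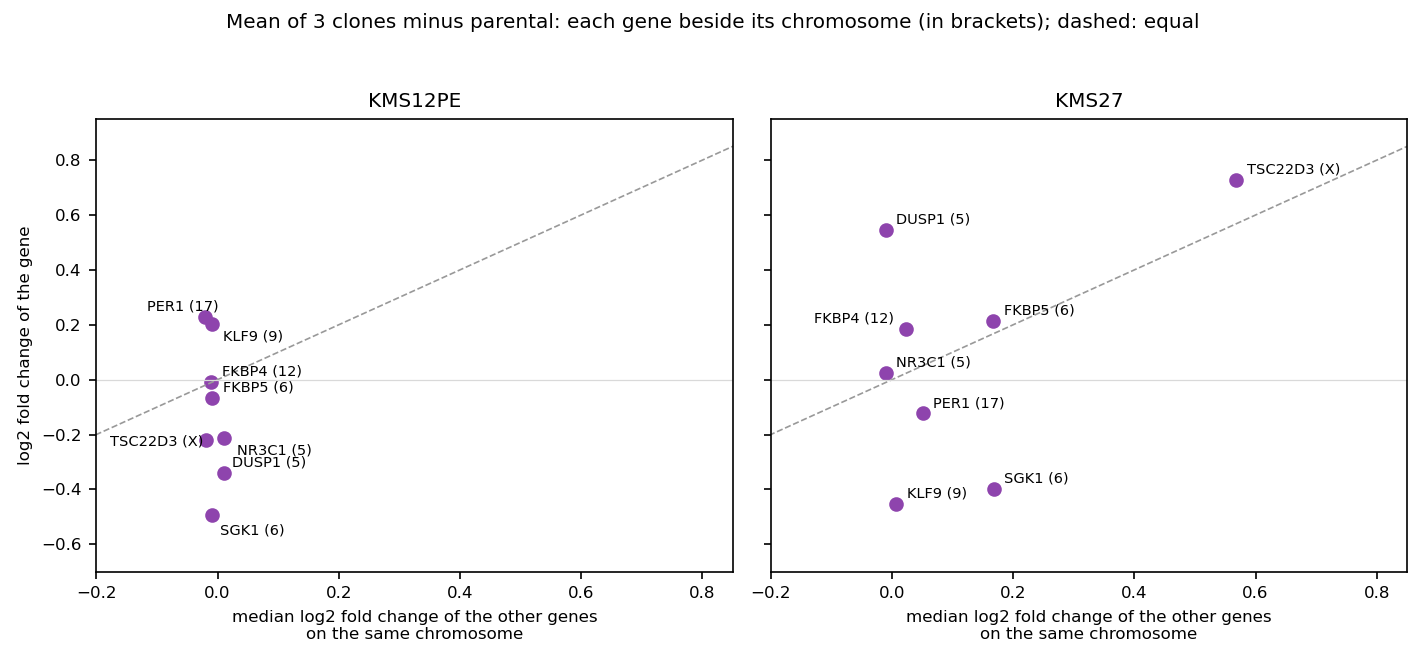
Log2 fold change of each of the 8 genes (y axis) against the median log2 fold change of the other genes on its chromosome (x axis), for the mean of 3 clones minus parental cells, with the chromosome in brackets. In KMS27 TSC22D3 lies at 0.73 beside a chromosome median of 0.57, SGK1 at -0.40 beside 0.17 and KLF9 at -0.45 beside 0.00716.

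SGK1 and KLF9 fell in KMS27. SGK1, a kinase that controls ion channels and FOXO factors, had 290.4 and 295 CPM in clone B5, 266 and 219.9 CPM in C1 and 309 and 295 CPM in C5, against 369.8 and 362 CPM in parental cells. All 6 clone libraries lay below both parental libraries. The log2 fold change of the mean was -0.40 ± 0.10 (SE, adjusted p = 0.0196), and of the single clones C1 passed (-0.59, adjusted p = 0.0115), 1 of 2 of the 8 genes called in C1 against 21.6% of all genes. The mean call was lost without parental replicate 1 (0.179), parental replicate 2 (0.124), C5 replicate 1 (0.0525) or C5 replicate 2 (0.0604). The C1 call was lost without parental replicate 1 (0.0927), parental replicate 2 (0.0620) or C1 replicate 2 (0.0918). The 46 genes within 10 Mb of SGK1 had a median of 0.02.

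In KMS12PE, SGK1 had 6.18 and 6.42 CPM in clone A, 9.08 and 8.33 CPM in clone C and 4.26 and 7.03 CPM in clone D, against 9.31 and 9.90 CPM in parental cells. The 6 clone libraries were again below both parental ones. The difference did not pass (log2 fold change of the mean -0.49, 95% interval -0.96 to -0.03, adjusted p = 0.419). With the replicate block clone D passed (-0.72, adjusted p = 0.0387) and the mean did not (0.136). The response of SGK1 differed between the lines by -0.08 (KMS12PE minus KMS27, 95% interval -0.48 to 0.32, adjusted p = 0.822).

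KLF9, a zinc finger factor that the hormone induces in many tissues, had 24.5 and 19.7 CPM in KMS27 clone B5, 28.5 and 29.1 CPM in C1 and 21.3 and 21.7 CPM in C5, against 34.3 and 31.2 CPM in parental cells. All 6 clone libraries lay below both parental libraries. The log2 fold change of the mean was -0.45 ± 0.10 (SE, adjusted p = 0.0129), with -0.57 for B5 (0.0163), -0.18 for C1 (0.335) and -0.61 for C5 (0.0121, 1 of 2 of the 8 genes called in C5 against 19.7% of all genes). The mean call was lost without parental replicate 1 (0.165) or 2 (0.0570). The B5 call was lost without parental replicate 1 (0.121) or 2 (0.0521) and with B5 and parental libraries alone (0.0930), and the C5 call without parental replicate 1 (0.0918), C5 replicate 1 (0.0937) or C5 replicate 2 (0.0800). The 33 genes within 10 Mb of KLF9 on chromosome 9 had a median log2 fold change of -0.17 over the mean of the clones, 0.03 in B5, -0.21 in C1 and -0.155 in C5, and the part of this in the KLF9 values was not tested. In KMS12PE, KLF9 had 8.65 to 12.7 CPM in clones, against 7.55 and 10.7 CPM in parental cells (log2 fold change 0.20, adjusted p = 0.815).

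KLF9 was the 1 gene of the 8 whose response differed between the lines, where 14.2% of all shared genes did. The KMS12PE response minus the KMS27 response was 0.66 ± 0.19 (SE, log2, adjusted p = 0.0333). The KMS12PE response itself did not pass its test, and the call did not hold without KMS12PE parental replicate 1 (0.22) or KMS27 parental replicate 1 (0.136), among the 10 libraries whose omission ended it. The 8 others were KMS12PE clone A replicates 1 and 3 (0.0506 and 0.0544), clone C replicate 3 (0.0564) and clone D replicate 3 (0.0545), and KMS27 parental replicate 2 (0.0593), clone C1 replicate 1 (0.0549) and clone C5 replicates 1 and 2 (0.0547 and 0.0515). With the replicate block, TSC22D3 (-0.93, adjusted p = 0.0401) and DUSP1 (-0.88, 0.0450) passed as well, against 0.0577 and 0.0911 without it. TSC22D3 also passed without KMS12PE clone D replicate 3 (0.0314) or KMS27 clone B5 replicate 1 (0.0395).

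DUSP1, a phosphatase that switches off MAP kinases, had 8.90 and 8.72 CPM in KMS27 clone B5, 6.71 and 6.11 CPM in C1 and 4.78 and 5.23 CPM in C5, against 3.74 and 5.27 CPM in parental cells. The B5 and C1 libraries lay above both parental libraries, and those of C5 lay between them. DUSP1 rose in B5 by 0.97 ± 0.21 (SE, log2, adjusted p = 0.0127), while C1 (0.51, adjusted p = 0.113), C5 (0.15, 0.664) and the mean of the clones (0.55, 0.0514) did not pass. The B5 call was lost without parental replicate 1 (0.106) and with B5 and parental libraries alone (0.0739). The mean passed without B5 replicate 1 (0.0271) or B5 replicate 2 (0.0317). In KMS12PE, DUSP1 had 3.56 to 5.99 CPM in clones, against 5.03 and 6.68 CPM in parental cells (log2 fold change -0.34, adjusted p = 0.771).

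PER1, a repressor of the circadian clock that the hormone induces within a short time, was called against parental cells in no clone of either line. It had 14.6 and 14.5 CPM in KMS27 clone B5, 23.97 and 18.7 CPM in C1 and 17.8 and 20.3 CPM in C5, against 20.2 and 19.2 CPM in parental cells. The B5 libraries were the lowest of the line (log2 fold change -0.44, adjusted p = 0.0702), and C1 stood above B5 by 0.56 (adjusted p = 0.0442). In KMS12PE it had 6.96 to 9.88 CPM in clones, against 6.76 and 7.55 CPM in parental cells, with clone C highest.

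Clone B5 thus had 3 genes of the 8 called higher (FKBP5, TSC22D3 and DUSP1, where 10.8% of all genes were called higher) and KLF9 called lower (10.2% of all genes). Without either parental library the B5 count fell, and the number of all genes called in B5 fell too.

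The levels of the targets before resistance differed strongly between the parental lines. On a scale common to the 16 libraries, SGK1 had 9.19 and 9.62 CPM in KMS12PE parental cells, against 409 and 398 CPM in KMS27 parental cells. TSC22D3 had 2.08 and 1.83 CPM in KMS12PE parental cells, against 35.6 and 38.1 CPM in KMS27 parental cells. The KMS27 level was 42.9 times that of KMS12PE for SGK1, 18.8 times for TSC22D3, 4.04 times for KLF9 and 3.10 times for PER1. The co-chaperones ran the other way. FKBP5 had 240.0 and 222 CPM in KMS12PE parental cells, against 81.6 and 83.3 CPM in KMS27 parental cells.

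In all, 7 of the 8 genes were called between the parental populations, where 64.0% of all shared genes were, 31.2% higher and 32.7% lower in KMS12PE. Higher in KMS12PE were FKBP5 (log2 difference 1.48, adjusted p = 1.13e-07), FKBP4 (0.98, 1.84e-05) and NR3C1 (0.31, 0.0219), and lower in KMS12PE were SGK1 (-5.42, 1.68e-11), TSC22D3 (-4.23, 1.03e-09), KLF9 (-2.01, 2.16e-07) and PER1 (-1.63, 2.48e-06). DUSP1 was not called (0.21, adjusted p = 0.539). The NR3C1 call was lost without KMS12PE parental replicate 3 (0.174) or KMS27 parental replicate 1 (0.0604) or 2 (0.0716). The highest of the 8 KMS12PE libraries had 9.62 CPM of SGK1 and 2.32 CPM of TSC22D3, against 241 and 35.6 CPM in the lowest of the 8 KMS27 libraries, so the clones kept the gap of their lines. The lines were deposited in separate tables at different depths, and line and sequencing run cannot be told apart.

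The other genes of the pathway were read from lists of chaperones, coregulators, further targets, steroid enzymes, clock genes, immediate early genes and relatives of the 8 genes. These lists, too, were chosen with earlier results of these data known. Beside the KMS12PE lists stand 1.47% of all genes called over the mean, and 798 of 12279 genes with the replicate block. In KMS12PE, 0 of 17 receptor chaperones were called over the mean of the clones (1 at an unadjusted p under 0.05, 0 by DESeq2, 1 with the replicate block), and their median log2 fold change was -0.01. In KMS27, 3 of 17 were called higher and 3 lower, with a median of 0.06, where 13.0% and 12.7% of all genes were. HSP90AB1, the constitutive HSP90 that holds the receptor, had 3027 and 3892 CPM in B5, 2794 and 2978 CPM in C1 and 3110.1 and 3656 CPM in C5, against 1955 and 2155 CPM in parental cells. It rose by 0.65 ± 0.15 (SE, log2, adjusted p = 0.0139) with all 6 clone libraries above both parental ones, and its response differed between the lines (KMS12PE minus KMS27, -0.71, adjusted p = 0.0151). The inducible HSP90AA1 rose by 0.53 (adjusted p = 0.02). STIP1 (HOP), which hands the receptor from HSP70 to HSP90, fell by 0.51 (0.00706), and PPID (cyclophilin 40), a co-chaperone of the same complex, fell by 0.44 (0.0051). STIP1 lies on chromosome 11 and PPID on chromosome 4, whose genes had medians of -0.46 and -0.32 in these clones, and the 113 genes near HSP90AB1 on chromosome 6 had a median of 0.27; the part of these shifts in the values was not tested. HSP90AB1 was not called without parental replicate 1 (0.167), parental replicate 2 (0.0805) or C5 replicate 2 (0.0573), PPID not without parental replicate 2 (0.0904), and STIP1 not without parental replicate 1 (0.0521) or 2 (0.109). HSP90AA1 was not called without parental replicate 1 (0.220) or 2 (0.103), C1 replicate 1 (0.0514) or 2 (0.0555), or C5 replicate 1 (0.0675) or 2 (0.0724).

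Some receptor coregulators were called in each line. In KMS12PE, 2 of 22 were called higher and 0 lower (1 and 0 by DESeq2), where 1.47% of all genes were called. With the block 3 were called higher and 0 lower, where 798 of 12279 genes were called. In KMS27 3 of 22 were called higher and 0 lower, where 13.0% and 12.7% of all genes were. The medians were 0.01 in KMS12PE and 0.08 in KMS27. NCOA1 (SRC-1), a coactivator that the hormone-bound receptor recruits, had 31.2 to 40.9 CPM in KMS12PE clones, against 22.9 and 24.8 CPM in parental cells, and rose by 0.55 (log2, adjusted p = 0.0415). In KMS27 it had 63.3 to 94.3 CPM in clones, against 56.5 and 59.8 CPM in parental cells, and rose by 0.38 (0.0106). No clone library overlapped the parental libraries in either line. In KMS12PE the NCOA1 call was lost with DESeq2 (0.0753), without clone A replicates 1 and 3 (0.0795 and 0.119), clone C replicates 1 and 3 (0.0982 and 0.0762), clone D replicate 1 (0.0603) and parental replicates 1 and 3 (0.197 and 0.359), and in KMS27 without parental replicate 1 (0.0764) or 2 (0.128). The 80 genes near NCOA1 on chromosome 2 had a median of 0.24 in the KMS12PE clones, and its part in the value was not tested.

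The second KMS12PE call was NCOA3 (SRC-3), with 312 ± 31 CPM (SD, n = 3 clone means) against 228 ± 2 CPM in parental cells (SD, n = 2 libraries), a rise of 0.45 (adjusted p = 0.0281). It was lost without clone A replicates 1 and 3 (0.0959 and 0.1), clone C replicates 1 and 3 (0.0629 and 0.0734) and parental replicates 1 and 3 (0.259 and 0.256). In KMS27 the other calls were MED14, a Mediator subunit on chromosome X (0.81, adjusted p = 0.000334, beside the chromosome median of 0.57), and EHMT2 (G9a), a histone methyltransferase (0.45, 0.00537). The 254 genes near EHMT2 on chromosome 6 had a median of 0.28, and the part of that shift in the EHMT2 value was not tested. EHMT2 was lost without parental replicate 1 (0.0973) or 2 (0.0505).

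Of the 5 steroid-handling genes tested in KMS27, 2 were called higher (HSD11B1 and H6PD) and 1 lower (SRD5A3), where 13.0% and 12.7% of all genes were, and the list median was 0.32. HSD11B1, which turns inactive cortisone into cortisol, had 1.54 and 1.75 CPM in clone B5, 7.07 and 3.26 CPM in C1 and 3.98 and 6.26 CPM in C5, against 0.798 and 1.01 CPM in parental cells. All 6 clone libraries lay above both parental ones, with a log2 fold change of 1.96 ± 0.38 (SE, adjusted p = 0.00603). C1 (2.52, adjusted p = 0.0042) and C5 (2.49, 0.00429) passed, and B5 (0.86, 0.22) did not. H6PD, which supplies the NADPH for HSD11B1 in the endoplasmic reticulum, had 60.9 and 57.5 CPM in B5, 58.0 and 50.2 CPM in C1 and 41.0 and 47.9 CPM in C5, against 32.5 and 27.7 CPM in parental cells. It rose by 0.79 ± 0.11 (SE, adjusted p = 0.00124), and the clones gave 0.97 (B5, 0.00141), 0.85 (C1, 0.00307) and 0.56 (C5, 0.0183). SRD5A3, a reductase of the same list on chromosome 4, fell (-0.58, 0.0183) beside a chromosome median of -0.32, whose part was not tested. The HSD11B1 call was lost without parental replicate 1 (0.0670), and the SRD5A3 call without parental replicate 2 (0.197), C1 replicate 1 (0.0553) or C5 replicate 1 (0.0615). In KMS12PE, 2 genes of the list were tested, with 0 called (0 at an unadjusted p under 0.05, 0 by DESeq2), and neither HSD11B1 nor H6PD was among them.

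Further glucocorticoid-induced genes were called in both directions, as were genes at large. In KMS27, 6 of 26 were called higher and 4 lower, where 13.0% and 12.7% of all genes were, with a median of 0.14, and in KMS12PE 0 of 22 were higher and 1 lower (3 and 1 with the block), with a median of 0.08. BCL2L11, which encodes the death activator BIM and is induced by the hormone in lymphoid cells, had 23.2 and 24.03 CPM in B5, 30.3 and 22.9 CPM in C1 and 53.1 and 54.9 CPM in C5, against 12.7 and 12.9 CPM in KMS27 parental cells, a rise of 1.34 (log2, adjusted p = 0.000137). TXNIP, which restrains thioredoxin and glucose uptake, had 68.0 and 66.8 CPM in B5, 155 and 134 CPM in C1 and 93.4 and 105 CPM in C5, against 198 and 213 CPM in parental cells, and fell by 1.05 (8.02e-05). Both responses differed between the lines (KMS12PE minus KMS27, -1.27 with an adjusted p of 3.02e-05 for BCL2L11 and 1.203 with 0.000125 for TXNIP). ZFP36, an RNA-destabilizing protein, fell by 1.05 (0.000178), and ISG20, an exonuclease, fell by 1.32 (0.00244). In KMS12PE, DDIT4, an inhibitor of mTORC1, had 7.85 to 10.3 CPM in clones, against 16.8 and 16.9 CPM in parental cells, and fell by 0.90 (adjusted p = 0.0153), while the difference from KMS27 was -0.91 (0.0013). The DDIT4 call was lost without clone A replicate 3 (0.0533), parental replicate 1 (0.158) or parental replicate 3 (0.168).

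Genes that glucocorticoids repress gave 3 higher and 2 lower of 10 in KMS27 (13.0% and 12.7% of all genes, median -0.01) and 0 of 8 in KMS12PE (1 at an unadjusted p under 0.05, 0 by DESeq2, 1 with the block, median -0.06). The chemokine CCL5 had 6.74 to 27.4 CPM in KMS27 clones, against 3.45 and 5.30 CPM in parental cells, and rose by 1.68 (adjusted p = 0.000871). FOS, a subunit of AP-1, had 23.5 and 13.5 CPM in B5, 2.24 and 6.80 CPM in C1 and 1.15 and 1.08 CPM in C5, against 0.653 and 0.897 CPM in parental cells (log2 fold change 2.54, 0.00629, and 0.0637 without parental replicate 1). MYC fell by 0.63 (0.000984), with 5 of 6 clone libraries below both parental ones, and the NF-kB subunit RELA, on chromosome 11, fell by 0.46 (0.0104), the same as the median of its chromosome (-0.46). RELA was lost without parental replicate 1 (0.0958) or 2 (0.0867).

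Of the clock genes in KMS27, 6 of 13 were called lower and 1 higher, where 12.7% and 13.0% of all genes were, with a median of -0.27. Among the single clones, B5 had 8 of 13 lower (10.2% of all genes) and 0 higher, with a median of -0.76. C1 and C5 each had 1 lower and 1 higher (21.6% and 19.7% of all genes called in either direction), with medians of -0.05 and -0.06. Genes of chromosomes 11 and 4 fell as a whole in KMS27, with medians of -0.46 and -0.32 over the mean of the clones and -0.59 and -0.32 in B5. The part of such chromosome shifts in the clock gene counts was not tested, so the counts are not read as a result about the clock. In KMS12PE 0 of 8 were called (1 at an unadjusted p under 0.05, 0 by DESeq2, 1 with the block), with a median of 0.08. NR1D2, a heme-binding repressor, had 10.5 and 8.40 CPM in B5, 26.7 and 20.8 CPM in C1 and 17.0 and 15.0 CPM in C5, against 25.06 and 25.003 CPM in parental cells, and fell by 0.71 (adjusted p = 0.0045). BHLHE41 had 0.250 and 0.213 CPM in B5, 3.12 and 4.65 CPM in C1 and 3.30 and 2.27 CPM in C5, against 4.03 and 3.74 CPM in parental cells (-1.51, 0.00297), so the low level was that of B5. The related repressor BHLHE40 had 92.4 and 90.9 CPM in B5, 268 and 166 CPM in C1 and 181 and 209 CPM in C5, against 76.8 and 75.6 CPM in parental cells, and rose by 1.04 (0.00254). CLOCK, the core activator, on chromosome 4, fell by 0.36 (0.0209) beside a chromosome median of -0.32, and was not called without parental replicates 1 and 2 (0.226 and 0.0846), C1 replicate 2 (0.0514) or C5 replicate 2 (0.055). Without C1 replicate 1 its adjusted p was 0.05, at the threshold.

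Among 15 immediate early genes of KMS27, 3 were called higher and 4 lower (13.0% and 12.7% of all genes, median -0.13), and among 10 of KMS12PE none was (3 at an unadjusted p under 0.05, 0 by DESeq2, 2 with the block, median 0.13). KLF2, a zinc finger factor of lymphocyte quiescence, had 1.54 and 1.86 CPM in B5, 1.91 and 3.92 CPM in C1 and 0.741 and 1.04 CPM in C5, against 15.3 and 15.4 CPM in parental cells. It fell by 3.24 ± 0.24 (SE, log2, adjusted p = 3.35e-05), and the lines differed by 3.44 (KMS12PE minus KMS27, 6.64e-05). KLF10, on chromosome 8, rose by 0.74 (0.00101) beside a chromosome median of 0.27, whose part was not tested. KLF6 rose by 0.56 (0.00363), and its call was lost without parental replicate 2. Of the relatives of the 8 genes, 3 of 17 were called higher and 4 lower in KMS27 (13.0% and 12.7% of all genes, median 0.03), and 0 of 14 higher and 1 lower in KMS12PE (0 and 2 with the block, median -0.04). DUSP6, a phosphatase of ERK, had 10.2 and 11.6 CPM in B5, 7.82 and 8.37 CPM in C1 and 6.07 and 6.11 CPM in C5, against 1.85 and 2.81 CPM in KMS27 parental cells (1.81, adjusted p = 0.000333), and DUSP4 fell by 0.69 (0.000645). The FK506-binding FKBP11 fell by 0.96 (0.000212). FKBP2, on chromosome 11, fell by 0.99 (0.000531) beside a chromosome median of -0.46, whose part was not tested. DUSP5, also a phosphatase of ERK, had 20.3 and 19.7 CPM in KMS12PE clone A, 27.2 and 23.7 CPM in clone C and 5.36 and 5.25 CPM in clone D, against 30.9 and 24.7 CPM in parental cells, and fell by 0.99 over the mean of the clones (0.0055, and 0.111 without parental replicate 1). Of the single KMS12PE clones, DUSP5 was called in clone D and not in clone A or C, so the low level was mainly that of clone D. In KMS27 DUSP5 was called higher, and the lines differed by -1.60 (KMS12PE minus KMS27, 7.11e-05), a value that includes the clone D level.

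The KMS27 counts of these lists depended on single libraries. Without either parental library the count of every list fell, and the number of all genes called fell too. Without B5 replicate 1 the counts of coregulators and of relatives of the 8 genes rose, as did the number of all genes called. Chaperones and clock genes also fell without any C1 or C5 library, and induced genes without either C5 library. Each such fit leaves 1 library in a population, so these changes are not read as a result about the lists.

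**Figure D5:**
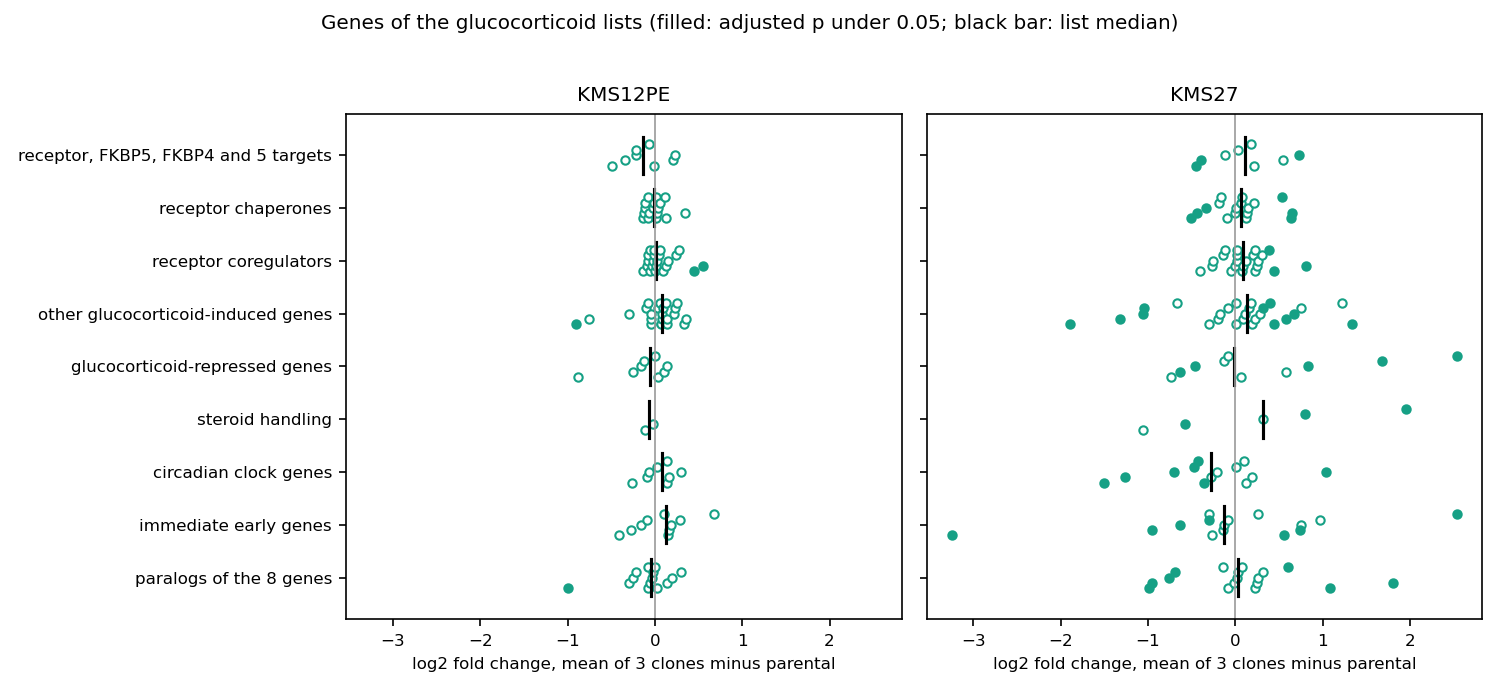
Log2 fold change (x axis) of each gene of the pathway lists in the mean of 3 clones minus parental cells, with filled points for an adjusted p under 0.05 and a black bar at the list median. The KMS12PE lists hold 0 to 2 filled points each, and in KMS27 each list has filled points, on both sides of 0 except for the coregulators.

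By the likeness of their log2 CPM over the 8 libraries of a line (Pearson's r among genes with a mean log2 CPM of at least 3, a description in libraries that share populations), the gene nearest to NR3C1 was PTMS in KMS12PE (r = 0.969) and SLC30A6 in KMS27 (r = 0.960). Nearest to TSC22D3 in KMS27 were MAGED1 and LAT2 (r = 0.984 each). The part of the chromosome X shift in this likeness was not tested. These nearest genes were the best of 9062 genes in KMS12PE and 9018 in KMS27 over 8 libraries, so a high r is not read as shared control. Nearest to PER1 in KMS27 was NR1D1 (r = 0.977), itself a clock repressor, with 5.78 and 5.58 CPM in B5, 23.99 and 14.7 CPM in C1 and 11.96 and 13.97 CPM in C5, against 13.5 and 12.7 CPM in parental cells. Among the 8 genes themselves, TSC22D3 in KMS27 ran with DUSP1 (r = 0.804) and against KLF9 (r = -0.86), FKBP5 against PER1 (r = -0.888), and NR3C1 in KMS12PE with SGK1 (r = 0.733).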

How the data were processed

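RNA of 16 libraries from 8 populations of 2 cell lines was analysed. Poly-A libraries were made with the Roche Kapa mRNA HyperPrep kit, per the labels' protocols. The authors deposited raw counts by gene symbol, with a separate table for either line, and the values are whole numbers with unequal totals. The build was hg38, per the submitters' processing notes. Aligner, counting tool, gene annotation and strand setting: not given in the sources used here. Each listed gene reaches 5 counts in 4 or more libraries of its line. Columns without a sample numbered 0.

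Counts were filtered with filterByExpr, scaled with TMM and fitted per line with edgeR 4.0.16 in R 4.3.3 (glmQLFit, glmQLFTest, 2-sided), with 1 mean per population, over 12279 genes in KMS12PE and 14088 in KMS27. A joint fit of the 16 libraries over 11623 shared genes tested the differences between lines. Adjustment followed Benjamini-Hochberg across every gene of a fit, with calls under 0.05. Intervals are 95% intervals of the fit, and 3 counts correspond to 0.527 CPM in the smallest library. Totals were lower in KMS12PE, which limits genes of few counts there. Biological coefficients of variation were 11.9% (KMS12PE) and 14.3% (KMS27). Libraries of a population differed by more than sampling noise (chi-square per degree of freedom 5.19 to 58.0), so none was one library deposited in duplicate; repeat preparations of one RNA are not excluded by this.

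Alternatives were other size factors, no filter, a replicate block, DESeq2 1.42.0, single-clone fits and leaving out each library. Same-numbered libraries deviated together in KMS12PE (r = 0.254 to 0.537 over 6 pairs of populations, across genes), so the numbers were taken to pair them and blocked values stand beside the results they change. In KMS27 r was 0.0597 to 0.444, highest for clone B5 with parental cells, and the numbers were not taken to pair libraries. On simulated counts with log2 changes of 1 and 2, the tests recovered 86% and 96% of changed genes for the KMS12PE mean, 79% and 95% for KMS12PE clone A, 79% and 95% for the KMS27 mean, 54% and 89% for KMS27 clone B5 and 62% and 97% for the difference between lines. The simulation gave all genes of a fit the same biological variation and changed 100 genes at each size. It held no paired libraries and no chromosome shifts, so recovery in the data may differ.

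The 8 genes and the lists were chosen with earlier results of these data known. The text names those 8 genes in every case. From each list and line it names at most 4 called genes, those of lowest adjusted p, and for each of the 8 at most 2 genes of highest correlation. DUSP5 in KMS27 was named outside that rule after its values were seen. Positions are from GENCODE v29, and promoters from RefSeq.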

Additional observations from a re-analysis of the deposited data

Results flagged for a closer look

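The response of KLF9 differed between the lines by a test of the difference itself. The KMS12PE response (log2 fold change 0.20, clones 8.65 to 12.7 CPM, parental cells 7.55 and 10.7 CPM) minus the KMS27 response (-0.45, clones 19.7 to 29.1 CPM, parental cells 31.2 and 34.3 CPM) was 0.663 on the log2 scale (adjusted p = 0.0333, edgeR). In KMS27 6 of 6 clone libraries lay below both parental libraries, and in KMS12PE 3 of 6 lay above both and 0 below both. The KMS12PE response did not pass its own edgeR test (adjusted p = 0.815). KLF9 was 1 of the 8 genes called for this difference, where 14.2% of all shared genes were. The call was lost when single libraries of either line were left out.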

How the results depend on the processing

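For the 8 genes, the size factors of RLE and the absence of a filter changed no call in 96 results each, DESeq2 added 3 calls in 96 and the replicate block added 8 in 88, and no other call changed under them. Fits of a clone and its parental libraries alone lost 4 calls in 48. With the replicate block the genes called in KMS12PE numbered 798 for the mean, 448 for clone A, 869 for clone C, 2019 for clone D and 3208 among clones, and those of the 8 numbered 1, 1 and 2 in clones A, C and D. In KMS27 the block gave 2965 genes among clones, 3 of the 8, and 2535 genes for the difference between lines, 3 of the 8. In KMS27, where the numbers were not taken to pair libraries, the block added DUSP1 for the mean (0.0385) and TSC22D3 (0.0245) and DUSP1 (0.0456) among clones. DESeq2 called 97 genes in clone A and 4 of the 8 among KMS27 clones. Fits of 1 clone and parental libraries gave 334 genes and 0 of the 8 in clone D, 1153 and 1 in B5, 4716 in C1 and 4315 in C5. Leaving out each library in turn gave, for genes called (and of the 8), 44 to 186 for the KMS12PE mean, 22 to 71 for A, 60 to 276 for C, 298 to 510 for D (0 to 1), 657 to 898 among them; 1285 to 5825 for the KMS27 mean (1 to 6), 1224 to 5032 for B5 (1 to 4), 856 to 5143 for C1 (0 to 3), 982 to 4420 for C5 (0 to 3), 602 to 4587 among them (0 to 4); and 978 to 2283 for the difference between lines (0 to 2). Signs turned in uncalled values alone on leaving out a library, with log2 ranges in KMS12PE of -0.116 to 0.12 (FKBP4) and -0.0113 to 0.481 (KLF9) for the mean, -0.0417 to 0.257 (PER1), -0.0985 to 0.137 (FKBP4) and -0.288 to 0.205 (KLF9) for A, -0.0548 to 0.118 (FKBP5), -0.218 to 0.018 (FKBP4) and -0.555 to 0.0387 (DUSP1) for C, and -0.032 to 0.204 (FKBP4) and -0.844 to 0.038 (TSC22D3) for D. In KMS27 they were -0.00668 to 0.0696 (NR3C1) for the mean, -0.231 to 0.142 (FKBP4) for B5, -0.0698 to 0.287 (PER1) for C1, and -0.0728 to 0.424 (DUSP1) and -0.154 to 0.0512 (PER1) for C5, and the parental difference of DUSP1 ran from -0.0194 to 0.478. The cause of these changes was not tested. TSC22D3 in KMS12PE, at 7 to 31 counts, is the gene most limited by depth.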
